A study of Mus musculus with 8 samples.

Results

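The Hox genes of newborn mouse skeletal muscle are described here as 39 of the 23336 genes in the count table, chosen by symbol as the members of the Hoxa, Hoxb, Hoxc and Hoxd clusters, with 11, 10, 9 and 9 genes in each cluster. Total RNA was depleted of ribosomal RNA and sequenced in 8 libraries, 4 from mice with the ΔDMR1-U2 deletion and 4 from wild-type mice, labelled as female, of the C57BL/6 strain and at postnatal day 2. The deletion is named for a differentially methylated region of the imprinted growth factor gene Igf2, and the study compared the genotypes. The labels do not say which muscle was taken, whether from forelimb, hindlimb or trunk, which parent passed on the deletion, or what the letters in library names 1A and 1B stand for. They also do not state that the libraries are separate animals, so the p-values measure the spread between these samples, which may be partly technical.

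Hox genes encode transcription factors that bind DNA through a homeodomain. They lie in clusters in which the order of the genes follows the order of their use along the body, so that low-numbered paralog groups are used from anterior levels on and high-numbered groups only at posterior levels or, in limbs, towards the distal end. Genes with the same number in different clusters are paralogs from one ancestral gene. In the embryo, muscle precursors migrate into the limbs from the somites, while the connective tissue of the limb comes from the lateral plate, and Hox genes are used in both.

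Paralog group 10, which acts in the proximal limb and the lumbar vertebrae of the mouse, held the largest part of the Hox signal, so the homeoboxes of its 3 genes are given to show how alike they are. Each is read 5′ to 3′ from the GENCODE vM21 transcript of the gene, and the capitals mark the codons for the conserved core of the DNA-binding helix.
Hoxa10: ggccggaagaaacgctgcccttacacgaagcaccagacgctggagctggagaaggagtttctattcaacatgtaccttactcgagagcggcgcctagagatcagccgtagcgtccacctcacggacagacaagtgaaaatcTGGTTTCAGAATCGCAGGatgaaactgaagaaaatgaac
Hoxc10: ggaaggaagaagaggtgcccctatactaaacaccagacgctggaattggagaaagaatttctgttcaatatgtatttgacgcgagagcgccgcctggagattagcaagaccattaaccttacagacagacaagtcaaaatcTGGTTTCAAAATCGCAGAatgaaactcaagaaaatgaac
Hoxd10: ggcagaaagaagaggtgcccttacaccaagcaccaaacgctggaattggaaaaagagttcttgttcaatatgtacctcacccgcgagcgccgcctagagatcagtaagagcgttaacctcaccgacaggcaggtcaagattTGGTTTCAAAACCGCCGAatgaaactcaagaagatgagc

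The homeoboxes of Hoxa10 and Hoxc10 were identical at 80.6% of 180 bases, those of Hoxa10 and Hoxd10 at 78.9%, and those of Hoxc10 and Hoxd10 at 82.8%. Over all 39 genes, the median identity was 80.6% in the 42 pairs of the same paralog group and 60.6% in the 699 pairs of different groups. A run of 50 identical bases, with no mismatch allowed, was taken as a stretch where a read end could belong to either gene. Such a run was shared by 3 of 741 gene pairs, over all GENCODE vM21 transcripts of each gene. These pairs were Hoxd3 with Hoxd4, Hoxc5 with Hoxc10, and Hoxa6 with Hoxb4, so none of them lies within one paralog group. Hoxd3 and Hoxd4 share exons on the same strand, as do Hoxc5 and Hoxc10 over 166 bases, and no source used here says how the authors' counting split or dropped such reads. In all, 9 Hox genes have exons that overlap another gene on the same strand, 10 overlap a gene on the opposite strand, and 23 overlap none. Without a stated strand setting, the reads of antisense pairs such as Hoxa11 and its antisense RNA cannot be told apart.

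A low number of reads stood behind these genes. Of 16781493 to 20060129 counts per ΔDMR1-U2 library, 2734 to 3870 fell on Hox genes, and of 16084413 to 26913636 per wild-type library, 2705 to 4834 did. Scaled to the depth of each library, the Hox genes summed to 163 to 191 counts per 1000000 (CPM) in ΔDMR1-U2 muscle and 159 to 188 in wild-type. Skeletal muscle markers summed to 153000 to 172800 CPM in ΔDMR1-U2 muscle and 166900 to 197800 in wild-type. Titin (Ttn) was the most abundant of them by CPM, which is not scaled to gene length. Of 4 libraries that stood apart, ΔDMR1-U2 library 1A, although labelled female, was nearly without Xist, the noncoding RNA that coats the inactive X chromosome, with 49 counts against 21122 to 42121 in the other 7. ΔDMR1-U2 library 1B had the highest sum of 6 white adipocyte markers, at 166 CPM against 28.6 to 66.1 in the others. In that library Cfd held 66.6 CPM of the sum and Adipoq 37.7. Cartilage and bone markers, 7 genes led by Col2a1, summed to only 47.3 CPM in library 3 of ΔDMR1-U2 muscle and 62.0 in library 1A of wild-type muscle, against 368 to 1289 in the other 6. In bulk RNA, fewer cells of a type and less RNA per cell cannot be told apart.

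Muscle at this age had transcripts of all 4 clusters, centred on the middle and posterior paralog groups. A level per gene length, in CPM per kilobase of the longest coding transcript (RPKM), summed to 79.7 ± 5.06 over the 39 genes in ΔDMR1-U2 muscle and 79.9 ± 6.07 in wild-type (SD, n = 4 each). Of this, averaged over all 8 libraries, group 10 held 27.1%, group 8 held 14.3%, group 9 held 13.9% and group 4 held 10.4%. Groups 5, 6 and 7 held 9.24%, 9.69% and 5.05%. The share was 5.15% in group 11, and 0.147% and 0.295% in groups 12 and 13, of which group 13 patterns the wrist, ankle and digits. Towards the other end of the clusters, group 2 held 1.63% and group 3 held 2.80%.

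**Figure D1:**
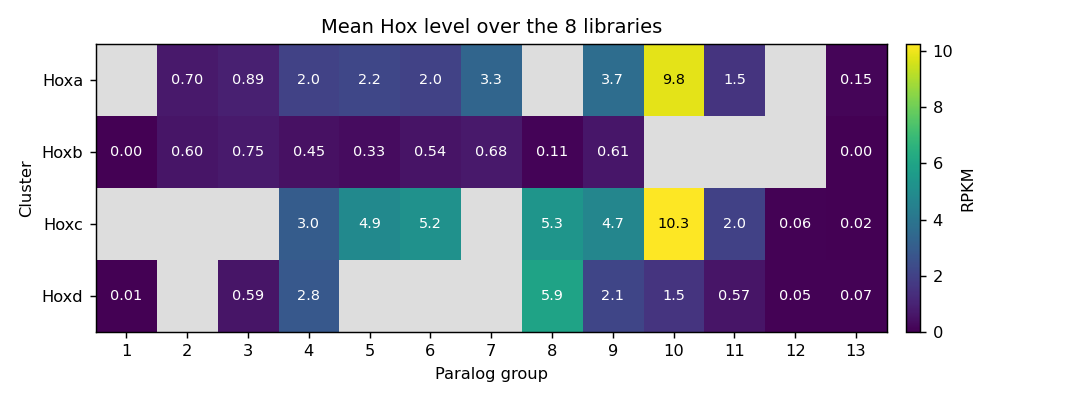
Mean level of each Hox gene over all 8 libraries, in RPKM (colour and printed number), by cluster (rows) and paralog group (columns); grey marks positions with no gene or none shown. The highest cells are Hoxc10 at 10.3 and Hoxa10 at 9.84, and the Hoxb row stays under 1.

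The Hoxc cluster held 44.3% of the summed RPKM, Hoxa 33.3%, Hoxd 17.2% and Hoxb 5.13%. Hoxc10 led at 10.3 ± 1.401 RPKM and Hoxa10 followed at 9.84 ± 0.475 (SD over all 8 libraries), and each was the higher one in 4 of 8 libraries, so these 2 do not differ beyond their spread. Both lay above every other Hox gene in all 8 libraries, the next being Hoxd8 at 5.95 ± 0.629 RPKM. Hoxc8 at 5.34, Hoxc6 at 5.18, Hoxc5 at 4.86 and Hoxc9 at 4.69 RPKM came next, and neighbours among these 5 genes kept their order in only 3 to 6 of 8 libraries. Lengths that count every annotated exon kept Hoxc10, Hoxa10 and Hoxd8 as the first 3, at 10.3, 7.72 and 5.71 RPKM.

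In the Hoxa cluster Hoxa10 stood above its neighbours on both sides, with Hoxa2 at 0.701 RPKM, Hoxa3 at 0.892, Hoxa4 at 2.04, Hoxa5 at 2.18, Hoxa6 at 2.01, Hoxa7 at 3.35 and Hoxa9 at 3.66 RPKM. Hoxa11, which with Hoxd11 shapes the forearm and lower leg, stood at 1.55 RPKM. The Hoxc genes, used along the trunk and, for Hoxc9 to Hoxc11, in the mouse hindlimb bud, ran from Hoxc4 at 2.99 RPKM through the genes named above to Hoxc11 at 1.99. The Hoxd cluster had Hoxd3 at 0.593 and Hoxd4 at 2.83 RPKM, was highest at Hoxd8, and was lower along Hoxd9 at 2.13, Hoxd10 at 1.53 and Hoxd11 at 0.574 RPKM. The Hoxb genes past the filter lay between Hoxb5 at 0.332 and Hoxb3 at 0.753 RPKM, with Hoxb2 at 0.598, Hoxb4 at 0.454, Hoxb6 at 0.539, Hoxb7 at 0.683 and Hoxb9 at 0.615. Over all annotated exons, 6 of the levels given were more than 1.5-fold lower, at 0.152 RPKM for Hoxd11, 0.384 for Hoxa3, 0.279 for Hoxb2, 2.12 for Hoxa9, 3.401 for Hoxc6 and 3.52 for Hoxc8. By the length of the longest coding transcript, Hoxb3 was 13.6-fold below Hoxc10. No Hoxb gene reached 1 RPKM, a level that 18 of the 39 Hox genes reached.

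The filter on low counts kept 30 of the 39 genes. The highest gene outside it, Hoxa13, had 57 counts summed over the libraries. Hoxa13, needed for the digits, was counted 7, 2, 12 and 12 times in libraries 1A, 1B, 2 and 3 of ΔDMR1-U2 muscle, and 5, 15, 2 and 2 times in those of wild-type muscle. Its range within each group was thus wider than the distance between the groups. Hoxd13, the other main digit gene, had 2, 7, 3 and 1 counts in ΔDMR1-U2 muscle and 1, 6, 4 and 4 in wild-type, and Hoxd12 had 1, 0, 6 and 6 against 1, 4, 4 and 0. Hoxb8 had 6, 9, 5 and 5 counts in ΔDMR1-U2 muscle and 4, 4, 12 and 5 in wild-type. Hoxc12, Hoxc13, Hoxd1 and Hoxb1 had at most 3 counts in any library, and Hoxb1, the hindbrain gene, had a single count in ΔDMR1-U2 library 1A. Hoxb13 had 0 counts in all 8 libraries, which allows a level of up to 0.0179 CPM over the pooled libraries (3 counts of the total, counting error only).

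No Hox gene differed between the genotypes past the threshold. Of the 30 genes tested, 0 were called by the edgeR quasi-likelihood test (Benjamini-Hochberg adjusted p under 0.05 over all 15241 genes tested), where 1.13% of all genes were called. The lowest adjusted p among them was 0.128 (edgeR). At an unadjusted p under 0.05, edgeR gave 3 of 30, all with lower levels in ΔDMR1-U2, that is 10% of the Hox genes against 21.3% of all genes tested, or 10.9% of all genes for the lower direction alone. DESeq2 also called 0, where it called 6.15% of all genes, and gave the same 3 genes unadjusted, and the authors' deposited table has 0 Hox genes at an adjusted and 0 at an unadjusted p under 0.05. The groups did not overlap in CPM in 2 of 30 Hox genes, or 6.67%, both with lower levels in ΔDMR1-U2, against 12.8% of all genes tested, or 6.38% for that direction alone. A p that misses the threshold does not show that the levels were equal.

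The fold changes were small and went both ways. Of the 30 genes, 19 had a positive and 11 a negative log2 fold change of ΔDMR1-U2 over wild-type, from -0.40 for Hoxa4 to 0.60 for Hoxd11. Their median was 0.04, against 0.00 for all genes tested, and their median size without the sign was 0.18, against 0.14. The median standard error (SE) was 0.21 on the log2 scale. Among the Hoxa genes, Hoxa4 to Hoxa7 had values of -0.40, -0.26, -0.33 and -0.33, and Hoxa9 and Hoxa10 had 0.03 and 0.04. Hoxd9, Hoxd10 and Hoxd11 had 0.36, 0.39 and 0.60, SE 0.17, 0.29 and 0.48, and none of these 3 passed even unadjusted. Hoxa2 had 0.45, SE 0.23. The count over all genes, 172 called, was itself unsteady, at 631 when ΔDMR1-U2 library 2 was left out, 7 when ΔDMR1-U2 library 3 was, and 7, 20, 10 and 22 when wild-type 1A, 1B, 2 and 3 were, while the Hox count was 0 in each of these fits, in the one without ΔDMR1-U2 libraries 1A and 1B together, and in the one without ΔDMR1-U2 library 3 and wild-type library 1A together.

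**Figure D2:**
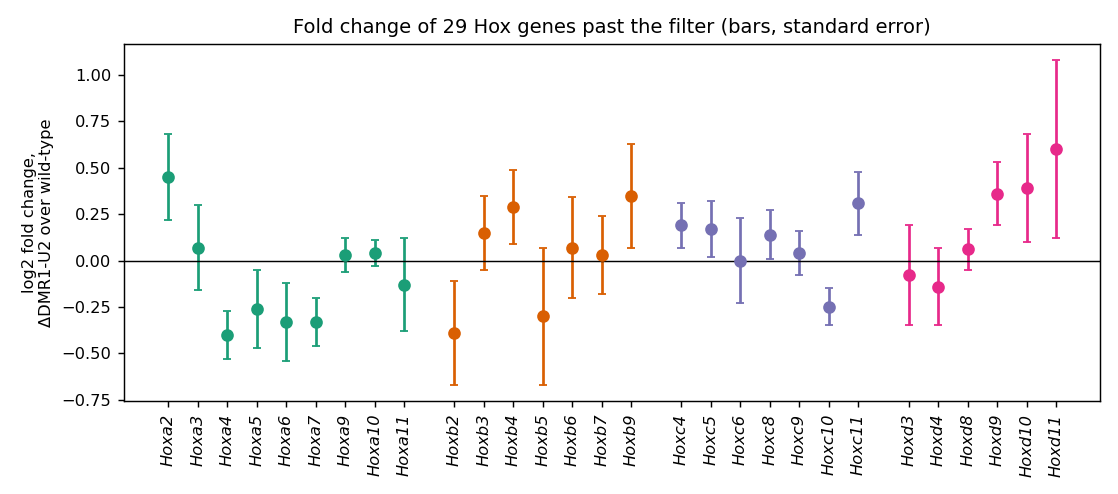
Log2 fold change of ΔDMR1-U2 over wild-type (vertical axis) for 29 of the 30 Hox genes past the filter, in cluster order along the horizontal axis, with points for the edgeR estimate and bars for its standard error. The values lie between -0.40 for Hoxa4 and 0.60 for Hoxd11, and the widest bar is that of Hoxd11.

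The most abundant gene of each cluster by CPM showed how far libraries varied within a genotype. Hoxa10, on chromosome 6 from 52231197 to 52240854 in the mm10 build, had 26.3, 23.7, 25.5 and 26.9 CPM for 1A, 1B, 2 and 3 of ΔDMR1-U2, against 24.0, 26.4, 24.9 and 24.1 CPM in the wild-type ones. The groups overlapped, and the highest library was 1.13-fold above the lowest, the narrowest range of the 30 genes. Its log2 fold change was 0.04, SE 0.07 (adjusted p = 0.781, edgeR).

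Hoxd8, a gene of the trunk and proximal limb on chromosome 2 from 74704615 to 74707933, had 17.2, 14.4, 13.9 and 18.4 CPM in ΔDMR1-U2 muscle and 17.0, 15.1, 15.4 and 14.01 CPM in wild-type. ΔDMR1-U2 libraries held both its highest and its lowest value, and its log2 fold change was 0.06, SE 0.11 (adjusted p = 0.784, edgeR). Hoxb3, which acts in the hindbrain and neck, on chromosome 11 from 96323326 to 96347930, had 2.20, 3.09, 2.03 and 2.81 CPM in ΔDMR1-U2 muscle and 1.82, 1.95, 2.39 and 2.93 CPM in wild-type. The groups overlapped over nearly their whole ranges, with a log2 fold change of 0.15 and a standard error of 0.20 (adjusted p = 0.706, edgeR). Exons of Hoxb3 overlap those of an antisense RNA.

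Hoxc10, on chromosome 15 from 102966796 to 102971893, had 18.3, 18.4, 15.8 and 19.0 CPM in ΔDMR1-U2 muscle and 19.1, 19.5, 21.9 and 24.7 CPM in wild-type. Every ΔDMR1-U2 library lay below every wild-type one, though ΔDMR1-U2 library 3 and wild-type library 1A nearly touched. The log2 fold change was -0.25, SE 0.10, and it ran from -0.30 to -0.18 when single libraries were left out (unadjusted p = 0.0294, adjusted p = 0.188, edgeR). Its paralog Hoxa10 had no such separation.

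Hoxa4 and Hoxa7 were the other 2 genes with an unadjusted p under 0.05. Hoxa4, a gene of the neck and upper trunk on chromosome 6 from 52189671 to 52191753, had 2.76, 3.15, 2.63 and 2.66 CPM in ΔDMR1-U2 muscle and 3.24, 3.87, 3.78 and 3.86 CPM in wild-type. The groups did not overlap, and the log2 fold change was -0.40, SE 0.13, from -0.46 to -0.38 when single libraries were left out (unadjusted p = 0.0108, adjusted p = 0.128, edgeR). Hoxa7, a thoracic gene on chromosome 6 from 52214491 to 52221854, had 5.82, 6.72, 5.61 and 5.62 CPM in ΔDMR1-U2 muscle and 7.92, 6.31, 7.07 and 8.71 CPM in wild-type. ΔDMR1-U2 library 1B lay above wild-type library 1B, so the groups overlapped, at a log2 fold change of -0.33, SE 0.13 (unadjusted p = 0.0244, adjusted p = 0.176, edgeR). Both genes overlap antisense RNAs, Hoxa4 over 255 and Hoxa7 over 586 exon bases. Endothelial markers, 3 genes led by Cdh5, summed to 379 to 404 CPM in ΔDMR1-U2 muscle and 401 to 435 CPM in wild-type muscle. Of these, Cdh5 averaged 141 CPM in ΔDMR1-U2 muscle and 171 in wild-type, while Pecam1 averaged 144 and 145 and Kdr 102 and 102. The part of antisense RNAs and of endothelial cells in the Hoxa values was not tested.

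**Figure D3:**
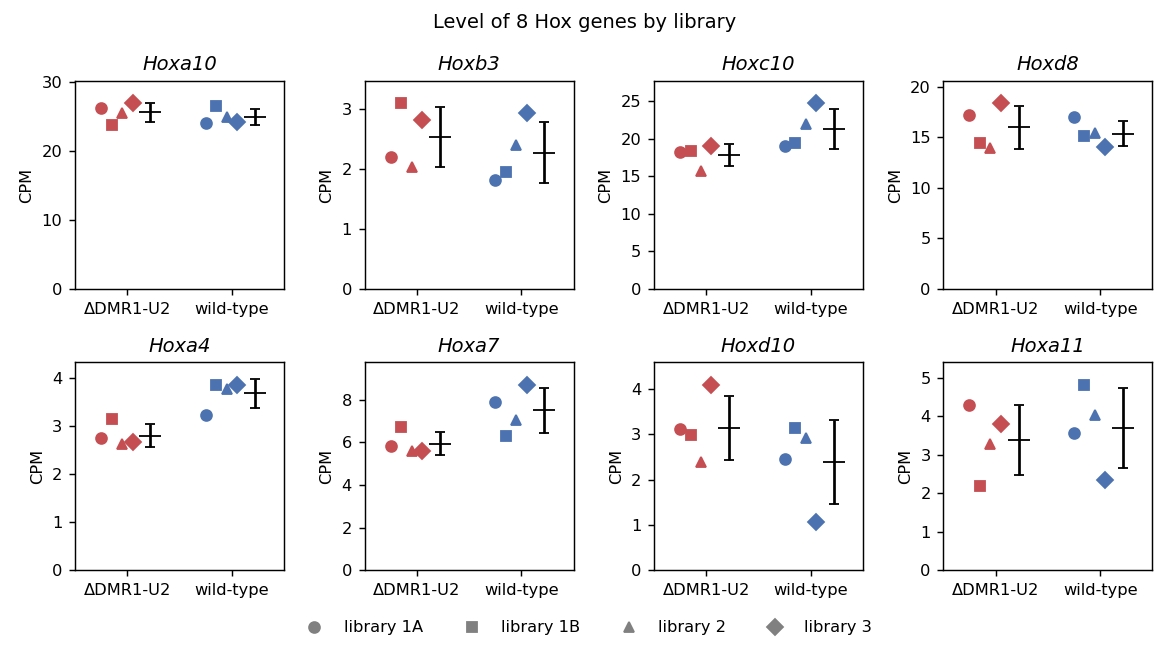
CPM (vertical axis, from 0) of 8 Hox genes in each ΔDMR1-U2 library (red, left) and each wild-type library (blue, right), with 1 symbol per library name and bars for the mean and SD of 4 libraries. Hoxa4 and Hoxc10 have groups that do not overlap, and wild-type library 3 is the lowest library for Hoxd10.

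The share of Hox counts by position along the clusters was nearly the same in both genotypes. Anterior groups 1 to 4 held 15.3% ± 1.03 of Hox counts in ΔDMR1-U2 muscle and 15.6% ± 0.674 in wild-type, middle groups 5 to 8 held 35.9% ± 1.79 and 35.9% ± 2.54, and posterior groups 9 to 13 held 48.7% ± 1.66 and 48.6% ± 3.19 (SD, n = 4 each). The differences of ΔDMR1-U2 minus wild-type were -0.24, 0.08 and 0.16 percentage points, each smaller than the SD of either group. No test was made of these shares.

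Single libraries differed more than the genotypes. The posterior share was 49.5%, 46.8%, 50.6% and 48.2% for 1A, 1B, 2 and 3 of ΔDMR1-U2 muscle, and 47.4%, 52.9%, 48.6% and 45.4% for those of wild-type muscle. Both extremes were wild-type, library 1B with a 95% Wilson interval of 51.4 to 54.4% and library 3 with one of 43.9 to 46.8%, intervals that cover counting error only and do not meet. The middle share mirrored this, at 32.4% in wild-type library 1B and 38.4% in wild-type library 3, the lowest and the highest of all libraries. The anterior share was lowest in ΔDMR1-U2 library 1A, at 13.8% (12.7 to 15.0%), against 14.7 to 16.2% in the other 7.

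**Figure D4:**
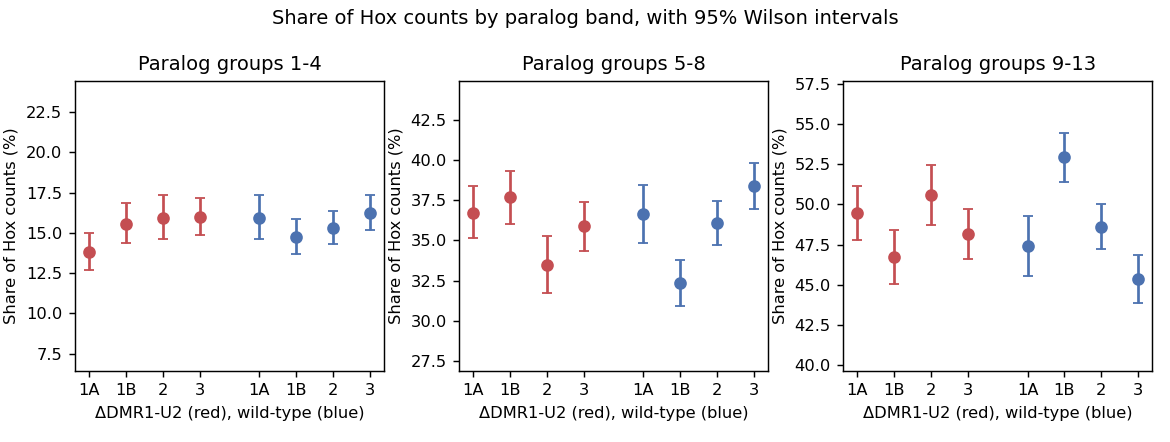
Share of Hox counts in percent (vertical axes, not from 0, each spanning the same width) in paralog groups 1 to 4, 5 to 8 and 9 to 13 for the ΔDMR1-U2 libraries (red, left) and the wild-type libraries (blue, right), with bars for 95% Wilson intervals of counting error. Wild-type library 1B has the highest posterior share at 52.9% and wild-type library 3 the lowest at 45.4%.

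Some posterior Hoxd genes, Hoxa11, Hoxc6 and Hoxd4 varied widely between libraries, and they were singled out after their values were seen. Hoxd10 had 61, 56, 40 and 83 counts in ΔDMR1-U2 muscle and 38, 82, 78 and 25 in wild-type, or 3.12, 2.99, 2.39 and 4.09 CPM against 2.47, 3.14, 2.92 and 1.06 CPM. The value of wild-type library 3, with an exact 95% Poisson interval of 0.687 to 1.57 CPM for counting error, lay below the intervals of all other libraries, of which the lowest began at 1.71 CPM. Without that library the log2 fold change of Hoxd10 was 0.14, against 0.39 with it.

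Hoxd11 had 8, 17, 21 and 10 counts in ΔDMR1-U2 muscle and 12, 16, 14 and 3 in wild-type, and Hoxd9 had 5.62, 5.34, 3.82 and 5.57 CPM in ΔDMR1-U2 muscle and 4.93, 3.71, 4.26 and 3.14 CPM in wild-type. Both were lowest in wild-type library 3. Summed from Hoxd9 to Hoxd13, the level was 4.78, 5.11, 4.44 and 5.45 RPKM in ΔDMR1-U2 muscle and 4.42, 4.17, 4.19 and 2.24 RPKM in wild-type. On this scale each ΔDMR1-U2 library lay above each wild-type one, but the groups overlapped in summed CPM, where library 2 of ΔDMR1-U2 muscle had 7.996 against 8.31 for library 1A of wild-type muscle, and in RPKM over all annotated exons, where these had 3.61 and 3.90. The sum was put together after the values were seen and was not tested. Hoxa11 had 4.29, 2.19, 3.28 and 3.798 CPM in ΔDMR1-U2 muscle and 3.57, 4.82, 4.04 and 2.34 CPM in wild-type, low in ΔDMR1-U2 library 1B and wild-type library 3. The Hoxc9 to Hoxc11 sum was instead highest in wild-type library 3, with 16.0, 16.6, 15.3 and 17.4 RPKM in ΔDMR1-U2 muscle and 16.7, 15.7, 18.3 and 19.6 RPKM in wild-type. The groups overlapped, and the members differed. Hoxc9 and Hoxc10 were highest in wild-type library 3, while Hoxc11 was lowest there, at 3.02 CPM. Log2 fold changes were 0.04 for Hoxc9, -0.25 for Hoxc10 and 0.31 for Hoxc11.

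The Hoxc4 to Hoxc6 sum was lowest in wild-type library 1B at 8.98 RPKM, against 10.9 to 15.7 in the other 7 libraries. Hoxc6 alone had 7.10, 10.5, 5.85 and 9.27 CPM in ΔDMR1-U2 muscle and 7.92, 5.13, 9.09 and 10.7 CPM in wild-type, a range of 2.08-fold with a log2 fold change of 0.00 between the genotypes. Hoxd4, which together with Hoxd3 patterns the neck vertebrae, had 4.14, 6.67, 7.28 and 9.47 CPM in ΔDMR1-U2 muscle and 8.31, 6.09, 7.59 and 8.45 CPM in wild-type. Its lowest value and that of Hoxd3, at 0.868 CPM, were both in ΔDMR1-U2 library 1A, the library with few Xist counts, and these genes share exons. ΔDMR1-U2 library 3, low in cartilage and bone markers, held the highest value of 10 of the 30 genes, and wild-type library 3 that of 8. Wild-type library 1A, also low in these markers, held the highest value of only 1 gene and the lowest of 4. The part of cell makeup in these differences was not tested.

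The spread between libraries, as edgeR's biological coefficient of variation, was 35.5% for Hoxd11, 26.8% for Hoxd10, 24.2% for Hoxb5, 22.7% for Hoxb9 and for Hoxa11, 22.4% for Hoxd3 and for Hoxc6, and 20.4% for Hoxd4. Hoxd9 was at 15.2%. It was 7.95% for Hoxa10, 8.43% for Hoxa9 and 10.5% for Hoxc10. The median was 15.5% over the 30 Hox genes and 10.9% over all genes tested. Spread within groups relative to counting error went the other way, with a median ratio of 2.725 over the Hox genes and 3.431 over all. Neither comparison was matched for expression level. Members of the same cluster, such as Hoxd8 at 10.7% and Hoxd10, thus differed in how steady they were.

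No regulator of limb identity was called between the genotypes, while some differed between libraries. Of 28 genes on this list, 27 were in the table and 24 passed the filter, of which edgeR called 0, against 1.13% of all genes, and gave 1, Prrx2, an unadjusted p under 0.05, against 21.3% of all genes. DESeq2 also called 0 of them. Their median log2 fold change was 0.03. Per length, the hindlimb factors Tbx4 and Pitx1 stood far above the forelimb factor Tbx5 in every library. Tbx4 had 3.35, 3.30, 3.43 and 3.05 RPKM in ΔDMR1-U2 muscle and 2.96, 3.39, 4.23 and 3.57 RPKM in wild-type, and Pitx1 had 3.44, 3.46, 4.16 and 3.30 RPKM in ΔDMR1-U2 muscle and 3.23, 3.22, 2.90 and 4.47 RPKM in wild-type. Tbx5 had 0.311, 0.379, 0.363 and 0.0751 RPKM in ΔDMR1-U2 muscle and 0.280, 0.175, 0.275 and 0.636 RPKM in wild-type. The groups overlapped for all 3, and Tbx5 was lowest in ΔDMR1-U2 library 3, with 6 counts, and highest in wild-type library 3, with 59.

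The ratio of Tbx4 to Tbx5 per length was 10.8, 8.71, 9.43 and 40.6 in ΔDMR1-U2 muscle and 10.6, 19.4, 15.4 and 5.62 in wild-type. Wild-type library 3 therefore combined the lowest ratio with the lowest level of Hoxd9 to Hoxd13, and ΔDMR1-U2 library 3 the highest of both. Hand2, a posterior factor of the limb bud, was also lowest in wild-type library 3, at 0.425 CPM against 0.907 to 1.94 CPM in the other 7. These pairings describe single libraries and were not tested.

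**Figure D5:**
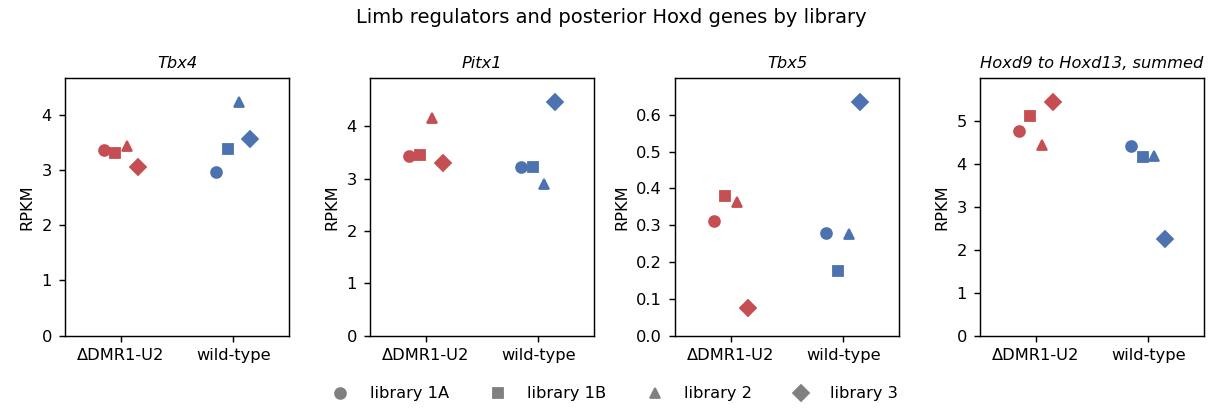
RPKM (vertical axes, from 0) of Tbx4, Pitx1 and Tbx5 and the sum of Hoxd9 to Hoxd13 in each ΔDMR1-U2 library (red, left) and wild-type library (blue, right), with 1 symbol per library name. Wild-type library 3 has the highest Tbx5, at 0.636, and the lowest Hoxd sum, at 2.24.

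The cofactors that bind DNA together with Hox proteins were expressed at or above the level of most Hox genes. Over all 8 libraries, Pbx2 averaged 14.5 RPKM, Pbx3 3.98, Meis1 4.46, Meis3 3.71 and Meis2 3.17 RPKM, with log2 fold changes from -0.18 for Pbx3 to 0.19 for Meis2. Pbx4, Lhx2 and Hand1 stayed below the filter. Of the factors of limb mesenchyme and the proximal limb, Tbx15 averaged 44.3 RPKM, Prrx1 19.7, Shox2 4.18, Prrx2 2.22 and Emx2 0.725 RPKM, with log2 fold changes from -0.19 for Prrx1 to 0.18 for Emx2 in the 4 other than Prrx2. Prrx2 had a log2 fold change of -0.59, SE 0.24 (unadjusted p = 0.0316, adjusted p = 0.195, edgeR).

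Of the anterior-posterior regulators, Tbx2 averaged 5.68 RPKM, Tbx3 3.35, Irx5 0.702, Hand2 0.525 and Irx3 0.437 RPKM. The dorsal factor Lmx1b averaged 0.276 RPKM, the ventral factor En1 1.21, Lhx9 0.123 and Zic1 0.298 RPKM. Islr2, a membrane protein, averaged 1.44 RPKM. Log2 fold changes in these genes ran from -0.26 for En1 to 0.99 for Zic1, whose standard error was 0.50 (adjusted p = 0.278, edgeR). Lmx1b was lowest in ΔDMR1-U2 library 3, at 0.543 CPM, and had its highest value, 2.17 CPM, in wild-type library 3.

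No noncoding RNA or neighbour of the clusters was called between the genotypes. Of 25 such genes on the list, 19 were in the table and 11 passed the filter, with 0 called by edgeR, against 1.13% of all genes, 2 at an unadjusted p under 0.05, against 21.3% of all genes, and a median log2 fold change of 0.09. DESeq2 called 0 here too. The most abundant by CPM was the neighbour Lnp of the Hoxd cluster, at 65.3 ± 6.72 CPM in ΔDMR1-U2 muscle and 71.7 ± 3.39 CPM in wild-type (SD, n = 4 each). Hotair, a noncoding RNA transcribed within the Hoxc cluster, had 3.01, 3.04, 2.57 and 3.45 CPM in ΔDMR1-U2 muscle and 2.47, 2.68, 3.29 and 1.91 CPM in wild-type, lowest in wild-type library 3. The antisense RNA of Hoxa11 had 2.40, 2.51, 3.58 and 3.16 CPM in ΔDMR1-U2 muscle and 2.34, 4.32, 2.43 and 1.66 CPM in wild-type, also lowest there.

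The clusters hold microRNA genes whose mature products pair with Hox messages, and their sequences are shown because the 2 families are told apart by their seeds. They are RefSeq entries of GRCm38.p6, 5′ to 3′, with the seed in capitals.
miR-10a-5p: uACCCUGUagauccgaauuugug
miR-10b-5p: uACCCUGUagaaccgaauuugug
miR-196a-5p: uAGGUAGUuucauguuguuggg
miR-196b-5p: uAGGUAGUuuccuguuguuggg

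The best pairing of miR-196a-5p over the longest coding transcripts of the 39 Hox genes was in Hoxb8, with 21 of 22 bases complementary and the remaining one a G:U pair, at transcript bases 2208 to 2229, past the end of its homeobox at base 1673. The next best windows, in Hoxa4 and Hoxd8, had 15 matched bases each. The site is shown 5′ to 3′ from the GENCODE vM21 transcript, with complementary bases in capitals.
Hoxb8: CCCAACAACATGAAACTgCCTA

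Hoxb8 averaged 0.114 RPKM, against 5.34 for Hoxc8 and 5.95 for Hoxd8, its paralogs, and the other Hoxb genes past the filter were low as well. In mouse embryos miR-196 is known to direct cleavage of the Hoxb8 message. Mature microRNAs were not measured in these libraries, whose rows for the hairpin genes Mir10a, Mir10b, Mir196a-1, Mir196a-2 and Mir196b held 0 to 21 counts, and the pairing is a description of the sequences.

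Among regulators of Hox expression, Cbx7, a chromobox subunit of the Polycomb repressor complex, was higher in ΔDMR1-U2, called by edgeR as 1 of 22 genes past the filter, of 25 on the list, where 1.13% of all genes were called. At an unadjusted p under 0.05, edgeR gave 3 of the 22, against 21.3% of all genes tested. Cbx7 had 2.91, 4.27, 2.86 and 3.60 CPM in ΔDMR1-U2 muscle and 1.49, 1.72, 1.68 and 2.00 CPM in wild-type. The groups did not overlap, at a log2 fold change of 0.98, SE 0.18 (adjusted p = 0.0348, edgeR). DESeq2 also called it. In the fits that left out 1 library, its values ran from 0.85 to 1.05, and the call was lost when library 1B or 3 of ΔDMR1-U2 muscle was left out, or any one of wild-type muscle.

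The Polycomb subunits Ezh2, Suz12, Eed, Bmi1, Ring1, Rnf2, Cbx2 and Cbx8 had log2 fold changes between -0.13 and 0.07. Jarid2 had -0.19, with groups that did not overlap in CPM, and was not called (unadjusted p = 0.0182, adjusted p = 0.154, edgeR). Aldh1a2, which makes retinoic acid, a signal that activates anterior Hox genes in the embryo, had 25.3, 25.5, 22.6 and 25.0 CPM in ΔDMR1-U2 muscle and 20.6, 19.9, 18.0 and 15.4 CPM in wild-type. The groups did not overlap, and the log2 fold change of 0.42, SE 0.10 missed the threshold (adjusted p = 0.0639, edgeR), while Aldh1a2 was called by DESeq2 and, in edgeR, without ΔDMR1-U2 library 2. Cyp26b1, which breaks retinoic acid down, had 10.1, 11.95, 10.2 and 3.404 CPM in ΔDMR1-U2 muscle and 2.27, 6.09, 7.44 and 8.45 CPM in wild-type, low in the same libraries as the cartilage and bone markers. Cdx2 and Cdx4, activators of Hox genes in the early embryo, had 0 counts in all libraries. By CPM, the most abundant regulator was the histone methyltransferase gene Mll1, at 157 ± 19.4 in ΔDMR1-U2 muscle and 141 ± 17.0 in wild-type (SD, n = 4 each). Per length it averaged 9.06 RPKM over all libraries, below Rnf2 at 20.4 RPKM among others.

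The other marker lists bear on which tissues the samples held. Connective tissue markers, 8 genes, summed to 9039 to 13510 CPM in ΔDMR1-U2 muscle and 11500 to 18950 in wild-type, with Col1a2 the most abundant. Pdgfra of that list, named after its values were seen, had 268, 409, 251 and 304 CPM in ΔDMR1-U2 muscle and 213, 222, 238 and 251 CPM in wild-type. Its groups nearly touched without overlapping, and it was not called (log2 fold change 0.41, SE 0.13, adjusted p = 0.128, edgeR). Other members of the list went both ways. Log2 fold changes were -0.49 for Col1a1, -0.30 for Col1a2 and for Lum, -0.11 for Tcf7l2 and -0.10 for Dcn. Osr1 had 0.18 and Osr2 had 0.01. Satellite cell markers summed to 62.9 to 76.8 CPM and 66.9 to 83.8, led by Myod1, and tendon markers to 52.9 to 175 and 146 to 199, led by Tnmd. Neuron markers summed to 2.86 to 3.68 CPM and 1.91 to 3.64, led by Nefl, and skin epithelium markers to 7.20 to 17.2 and 7.43 to 11.3, led by Krt10. Head and branchial muscle markers summed to 33.3 to 37.6 CPM and 36.9 to 41.7, led by Msc, and axial markers to 22.8 to 33.4 and 20.1 to 27.0, led by Tbx18, with Uncx at 0 counts throughout. Brown adipocyte markers summed to 44.5 to 87.3 CPM and 44.7 to 50.5, led by Ppargc1a. Their member Cidea was the single edgeR call of all marker lists, where 1.13% of all genes were called. It was 1 of 3 brown adipocyte markers past the filter. The others were not called, with log2 fold changes of 0.12 for Ppargc1a and -0.25 for Elovl3. Ucp1 of the same list stayed below the filter, with 6 counts summed over all 8 libraries. Cidea had 17.1, 30.7, 16.1 and 24.0 CPM in ΔDMR1-U2 muscle and 10.6, 11.2, 10.2 and 9.94 CPM in wild-type (log2 fold change 1.07, standard error 0.18, adjusted p = 0.0301, edgeR). Cidea lost its call when library 3 of ΔDMR1-U2 muscle was left out, or any one of wild-type muscle. DESeq2, which called 6.15% of all genes, called Cidea, Cdh5 and Myh3, and edgeR without ΔDMR1-U2 library 2 called the tendon gene Scx. The part of these tissues in the Hox values was not tested.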

How the data were processed

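One table of the whole series held the raw, unnormalized read count of each gene in each library, deposited by the authors (per the file headers). Beside the counts, the authors deposited mean normalised counts per group, a signal after size-factor scaling. They also deposited a wild-type over ΔDMR1-U2 fold change as a ratio, its log2, and a p-value with its adjusted form. Per the submitters' processing notes, reads were handled on the mm10 build with TopHat2 2.0.9, Bowtie2 2.1.0, HTSeq 0.5.4p3, FastQC 0.10.1 and DESeq2 1.4.5. No source used here gives their settings, the gene annotation or the strand setting.

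Counts were tested in edgeR 4.0.16 (R 4.3.3) with TMM scaling, a filterByExpr minimum count of 10, which left 15241 genes, and the quasi-likelihood test of ΔDMR1-U2 over wild-type with no covariates, with Benjamini-Hochberg adjustment at 0.05. The fit was tested on simulated data. CPM uses the TMM-scaled library size, and RPKM divides it by the length of the longest coding transcript in GENCODE vM21, to which all 39 Hox symbols matched. Libraries held 16084413 to 26913636 counts, and the common biological coefficient of variation was 12.3%. Intervals cover counting error only.

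Per-library values are given for the most abundant Hox gene of each cluster, every Hox gene below the filter with more than 3 counts in a library, and genes singled out after their values were seen, which include Hoxa4 and Hoxa7. Of the other lists, every limb regulator past the filter, each called gene and otherwise the most abundant member by CPM are named. A few genes covered by these choices are not reported here. The Hox members and all lists were chosen with earlier results of these data known. Alternatives were DESeq2 1.42.0, RLE scaling, no filter, a replicate block, and leaving out libraries.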

Additional observations from a re-analysis of the deposited data

Results flagged for a closer look

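In 4 of 118 groups of 4 libraries checked, the highest or lowest library lay farther from its nearest neighbour than Dixon's 95% critical value allows, where chance flags about 1 in 20 groups. Hoxd9 was 3.82 CPM in ΔDMR1-U2 library 2, against 5.34 to 5.62 CPM in the other 3 ΔDMR1-U2 libraries. Hoxa4 was 3.24 CPM in wild-type library 1A, against 3.78 to 3.87 CPM in the other 3 wild-type libraries, and this low value was still above all ΔDMR1-U2 libraries. The ventral limb factor En1 was 2.35 CPM in ΔDMR1-U2 library 1A, against 2.99 to 3.11 CPM in the other 3. Tbx2 was 23.9 CPM in wild-type library 3, against 19.4 to 19.6 CPM in the other 3 wild-type libraries. The low Hoxd10 of wild-type library 3 did not reach this criterion.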

How the results depend on the processing

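The count of Hox genes called was 0 in the main comparison and in all 14 alternatives run, and no Hox gene was called in any of them. The count over all genes, 172, was 930 with DESeq2, 16 without ΔDMR1-U2 libraries 1A and 1B, 2 without ΔDMR1-U2 library 3 and wild-type library 1A (a choice added after seeing the data), and 7 to 631 when single libraries were left out. With a replicate block it was 13. The calls of Cbx7 and Cidea were not made with the replicate block, without ΔDMR1-U2 libraries 1A and 1B, or without ΔDMR1-U2 library 3 and wild-type library 1A. Libraries of the same name did not deviate together from their group means, with correlations of -0.216, -0.182, -0.084 and -0.080, and none correlated best with its own number. The labels do not say what the numbers stand for, so these correlations alone cannot decide whether the numbers pair the samples.

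Of 406 refitted log2 fold changes of 29 Hox genes, 378 kept their direction and 28 changed sign, all of them in genes with an adjusted p of at least 0.747 (edgeR), and 19 genes kept their sign throughout. Leaving out ΔDMR1-U2 libraries 1A and 1B gave -0.0023 for Hoxb6, -0.11 for Hoxc6, -0.01 for Hoxc9, 0.25 for Hoxd3 and 0.15 for Hoxd4. Leaving out ΔDMR1-U2 library 3 and wild-type library 1A gave -0.03 for Hoxa3, -0.12 for Hoxb6 and -0.08 for Hoxc6. Hoxc6 was -0.00011 with DESeq2 and -0.00073 with no filter. With single libraries left out, the values ran from -0.06 to 0.29 for Hoxa3, -0.0023 to 0.07 for Hoxa9, -0.30 to 0.04 for Hoxa11, -0.11 to 0.28 for Hoxb6, -0.03 to 0.13 for Hoxb7, -0.17 to 0.16 for Hoxc6, -0.06 to 0.10 for Hoxc9, -0.31 to 0.14 for Hoxd3, -0.33 to 0.05 for Hoxd4 and -0.0095 to 0.12 for Hoxd8. The cause of these changes was not tested.

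The differences in paralog band shares moved by less than the spread between libraries in every alternative, though their signs varied. The posterior difference was -0.87 percentage points for groups 10 to 13, 0.47 with counts per kilobase and -0.02 without Hoxa10. Depth limits the genes with few counts, such as Hoxd11 with 3 to 21 per library and the 9 genes below the filter.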
